A study of Daphnia magna with 80 samples.

Results

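Expression was compared between the oldest sampled males and the oldest sampled females of the water flea Daphnia magna, so that each sex was taken at the old end of its own sampled life and not at equal days. The males were 35, 38 and 40 days old (3 libraries at each age) and the females 70 days (1 library), 75 days (3) and 80 days (3), chosen by the sex and age in the sample titles. These 16 libraries, 9 of males and 7 of females, were part of 80 deposited columns, of which 76 libraries had a group once technical runs were summed. All animals were of strain Bham2, with no treatment beyond normal culture in high hardness COMBO medium and algal food, and RNA came from whole animals, so fewer cells of a type and less RNA per cell cannot be told apart. Reference groups from the same strain and culture were the youngest animals (6 male libraries of 8 and 10 days, 6 female libraries of 10 and 15 days) and 5 female libraries of 35 and 40 days, which matched the old males in days.

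Daphnia reproduce by cyclic parthenogenesis: a female can lay eggs that develop without fertilisation into daughters or sons of her own genotype. No sex chromosome separates the sexes, and males arise when the mother responds to cues such as crowding or short days, through juvenile hormone signalling and the male-determining gene doublesex. Adult females spend much of their lives making yolk and eggs in repeated broods, whereas males make sperm and carry longer first antennae and a hooked first leg. The animals here were frozen when the brood pouch was empty, per the labels' protocols. Age is nested in sex in these 16 libraries, so within them a difference between the sexes and one between the ages cannot be told apart. The files give 26646 gene IDs without names, and 0 of them matched the reference table, so the genes below are given by ID and no pathway, tissue or germline marker list could be read.

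The old males had 10767026 to 25819540 gene counts per library and the old females 2242215 to 23736374. The 75-day female 2 was the shallowest, at 2242215, and 1 count in it equals 0.446 CPM, the usual scaling of counts by library size. In a principal component analysis of the 2000 genes that varied most, the first component held 47.3% of the variance, and on it all males lay between -63 and -33.1 and all females between 54.8 and 74.1. On the second component (16%) 75-day females 2 and 3 stood at -49.5 and -81.8 and 38-day male 1 at -52.8, apart from the rest of their sex, and on the third component (13%) the same females lay at 96.5 and -52. Several of the results that rest on these females are therefore given with and without them. The ratio of 2 synthetic spike-in RNAs, which had counts in all 76 libraries, was split into 2 clusters at the widest gap in its sorted values. The outer 10% at each end were left out in placing the cut. Such a cut gives 2 clusters in any data, and whether the ratios form separate clusters was not tested. The higher cluster held 6 of 9 old males and 1 of 7 old females, and all 12 young libraries lay in the lower one. Whether replicates are separate cultures or animals is not stated in the labels, and p-values therefore reflect the scatter among these libraries, some of which may be technical.

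**Figure D1:**
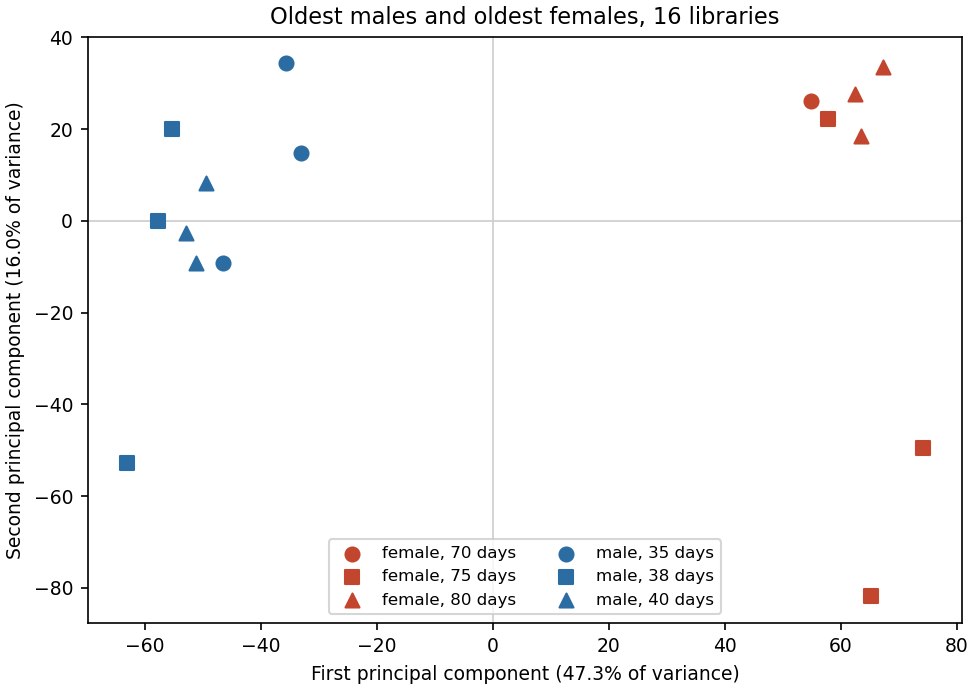
First against second principal component of log2 CPM in the 16 libraries of the oldest animals, with males in blue and females in red and symbols for age. Males lie between -63 and -33.1 and females between 54.8 and 74.1 on the first axis, and 75-day females 2 and 3 and 38-day male 1 lie low on the second.

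Of 15994 genes tested, 4967 (31.1%) were called different between the sexes at the old end, 2431 (15.2%) higher in males and 2536 (15.9%) higher in females (edgeR quasi-likelihood test, adjusted p under 0.05). Of these, 2655 differed by at least 2-fold and 783 by at least 4-fold (416 higher in males, 367 in females), 244 by at least 16-fold and 124 by at least 64-fold. The last were 54 higher in males and 70 in females, or 50 and 70 with the 10 genes that had no count in 1 sex taken at their bound. Without 75-day females 2 and 3, 6239 genes were called, and 4546 of the 4967 were called again, all in the same direction. Library sizes set by the spike-ins moved the median gene from -0.02 to 0.37 on the log2 scale and gave 2379 calls, 1891 of them higher in males, whereas relative log expression scaling, DESeq2 and limma-voom left the split near even, with 48.7%, 50.1% and 49.2% higher in males. Within the lower spike-in cluster (3 males and 6 females) 1372 genes were called, 721 higher in males, and 1308 were among the 4967, all with the same direction. A fit with the cluster as a covariate called 3651 genes.

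Calls did not mean separation. The CPM of the 9 males lay entirely above those of the 7 females for 881 genes (5.51% of those tested) and entirely below for 741 (4.63%), while 1553 genes called higher in males and 1795 called higher in females overlapped between the sexes. Differences of at least 4-fold were most frequent among low-abundance genes: of 4 equal classes by abundance, the lowest held 227 such genes higher in males and 164 higher in females, against 54 and 55 in the highest. The share called was 27.3% in the lowest and 33.1% in the highest class.

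A small set of genes was close to limited to 1 sex in old animals, defined as a median of 5 CPM or more in that sex and under 0.1 CPM in the other. They numbered 17 in males and 33 in females. The male-limited gene APZ42_034002 measured between 7.67 and 13.5 CPM in the 9 old males (median 10.3) and had no read in any of the 7 old females. With a floor of 3 counts over the female group it was at least 393-fold higher in males (edgeR quasi-likelihood test, adjusted p = 8.66e-10). APZ42_010571 was at 57.7 to 144.7 CPM in males (median 107.8) and 0 to 0.448 CPM in females, a log2 difference of 9.26 ± 0.56 (SE; adjusted p = 1.07e-09). The sexes were far apart for both genes in every library.

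In the other direction APZ42_013501 measured 39.0 to 140.9 CPM in the old females (median 87.9) and 0 to 0.157 CPM in the old males, a log2 difference of -10.10 ± 0.45 (edgeR, adjusted p = 2.92e-11). APZ42_008269 had 2.19 to 37.9 CPM in the females and a single count among all 9 males, a pooled ratio of 4730 with a 95% interval from 848 to 187000 that covers counting error only (edgeR, adjusted p = 2.77e-10). Its lowest female value, 2.19 CPM, came from 75-day female 2, the shallowest library. None of the 4 genes changed direction or lost its call under any alternative or when any library was left out. Genes limited to a sex in old animals were also expressed in the young animals of that sex. The 33 female-limited genes had a median of 17.9 CPM in old females and 49.6 CPM in young females, and the 17 male-limited genes a median of 10.3 CPM in old and 21.7 CPM in young males. Each of the 33 and each of the 17 reached a median of 1 CPM or more in the young animals of its sex.

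**Figure D2:**
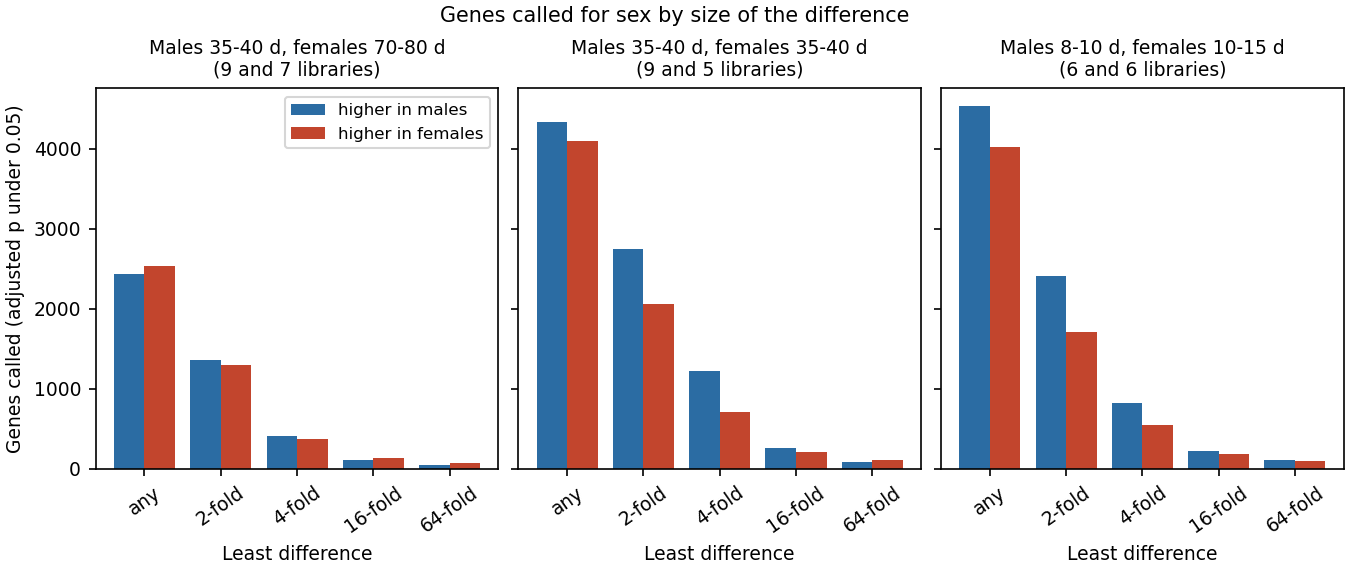
Number of genes called (adjusted p under 0.05) by the least size of the difference, for old males against old females (left), the same males against females of 35 and 40 days (middle) and the youngest animals (right). Blue bars are genes higher in males and red bars genes higher in females, and in every class the left panel has fewer genes than the other panels.

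Genes whose sex difference itself differed between the ends were less often wider at the old end than all tested genes. They were more often of opposite sign, and their share of narrower differences lay near that of all tested genes. Narrower ones outnumbered wider ones under each scaling tried, while with spike-in library sizes most of these differences were of opposite sign at the 2 ends. The same test on the youngest animals called 8547 of 15484 genes (55.2%), of which 4526 (29.2%) were higher in males and 4021 (26%) higher in females. Of these, 827 and 547 differed by at least 4-fold. Over the 15145 genes tested at both ends, the median absolute log2 difference between the sexes was 0.42 at the old end and 0.602 at the young end. The differences ran in similar order across genes, which are no replicates of a condition (Pearson's r = 0.811, Spearman's rho = 0.676). For the difference of differences, 2725 of 17042 genes were called (16%). Among the 2623 of these that had been tested at both ends, the sex difference was narrower at the old end for 1446 (55.1%, against 50.5% of all tested genes), of opposite sign for 987 (37.6%, against 25.2%) and wider for 190 (7.24%, against 24.3%). Without 75-day females 2 and 3 these counts were 1849, 1334 and 278. Within the lower spike-in cluster 53.6% were narrower and 5.11% wider. For this fit, and for the spike-in sizes below, the shares over all tested genes were not computed. Of the 2725 genes 1637 moved towards males (9.61% of those tested) and 1088 towards females (6.38%), against 1206 towards males of 2543 with relative log expression scaling, 1605 of 3377 with DESeq2 and 3467 of 3576 with spike-in library sizes. The spike-in sizes put the median gene at 0.957 for the difference of differences and at -0.581 for the young end, where 956 of 6224 calls were higher in males, and gave 2352 of 3480 called genes of opposite sign, 978 (28.1%) narrower and 150 (4.31%) wider.

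More of these genes were called between young and old in females than in males. The young and old females lay further apart in days than the young and old males, and equal spans of days were not tested. The counts and shares given here for each sex therefore do not compare the sexes over equal times. Of the 2623 genes, 1631 (62.2%, against 28.1% of all tested genes) were called between young and old in females alone, 433 (16.5%, against 10.6%) in males alone, 264 (10.1%, against 15.9%) in both sexes in 1 direction and 225 (8.58%, against 1.49%) in both in opposite directions. The difference of differences is the male change minus the female change in the same fit. Genes changed in 1 sex or in opposite directions were thus more likely to be called by construction, and all 225 tested genes with opposite changes were. The distance of these shares from those of all tested genes is therefore only a description. Between young and old, 7470 of 17042 genes were called in females (43.8%), 3337 (19.6%) higher and 4133 (24.3%) lower in old animals, and 4569 in males (26.8%), 2119 (12.4%) higher and 2450 (14.4%) lower. With 10-day libraries alone as the young end, 4650 were called in females and 1507 in males, from fewer libraries. The difference of differences then had 834 calls. With spike-in library sizes 427 genes were called higher and 8357 lower in old females, the median gene being at -0.95, and the female-only share was 87.1%. Within the lower spike-in cluster the female-only share was 78.8% of 1096 genes.

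**Figure D3:**
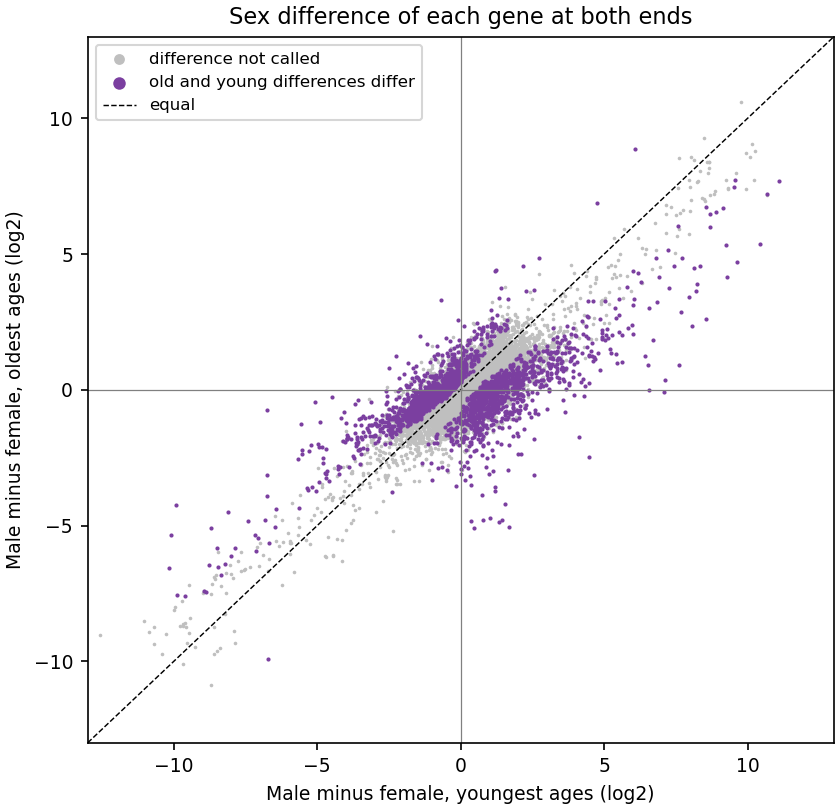
Male minus female log2 difference of each gene tested at both ends, youngest animals on the horizontal and oldest on the vertical axis, with equality as a dashed line. Purple genes were called for the difference between the ends. Of these 1446 (55.1%) had a narrower and 190 (7.24%) a wider difference in the oldest animals, and 987 (37.6%) one of opposite sign. The shares over all tested genes were 50.5%, 24.3% and 25.2%.

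The 2 genes with the smallest p for a shift towards males were APZ42_025444 and APZ42_033978. APZ42_025444 measured 240.8 to 303.4 CPM in old males (median 265.5) and 5.70 to 17.0 in old females (median 13.6). In young animals it measured 66.5 to 173.3 CPM in males (median 99.9) and 42.2 to 54.2 in females (median 49.9). Its sex difference grew by 3.28 ± 0.27 on the log2 scale (edgeR, adjusted p = 3.08e-08), with log2 changes from young to old of 1.26 in males and -2.02 in females. The sexes did not overlap at either end. At 20 days males were already at 219.8 to 249.8 CPM and females at 28.35 to 41.2 CPM (2 libraries each). APZ42_033978 was higher in young females (807.8 to 1548 CPM) than in young males (21.6 to 46.7 CPM), while old females, at 50.0 to 268.0 CPM (median 158.4), overlapped old males, at 83.8 to 164.3 CPM (median 97.3) (shift 4.74 ± 0.41, edgeR, adjusted p = 3.09e-08). Low female levels were not particular to the oldest animals. Females were at 23.98 to 172.6 CPM at 25 days, though at 496.7 to 763.9 CPM at 35 days. Shifted towards females were APZ42_017140 (-1.66 ± 0.16, adjusted p = 1.54e-07) and APZ42_016324 (-2.23 ± 0.23, edgeR, adjusted p = 4.66e-07). For APZ42_017140 the higher sex changed: males were at 21.2 to 32.1 CPM and females at 17.0 to 19.7 when young, and males at 11.5 to 17.7 and females at 27.1 to 41.3 when old. This change was not particular to the oldest animals: at 20 days females were at 29.17 to 30.79 CPM and males at 19.03 to 20.76 (2 libraries each). For APZ42_016324 males stayed higher in median, at 109.9 against 64.4 CPM when old and 183.4 against 22.7 CPM when young. Of the 2 ends the sexes overlapped only at the old one, and females of 30 days were already at 57.12 to 80.67 CPM. With spike-in library sizes both of these shifts kept their direction and lost their call (adjusted p = 0.192 and 0.0601).

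A full reversal was rare. Of 3652 genes called at both ends, 148 were called in opposite directions, 33 from female-higher to male-higher and 115 from male-higher to female-higher. All 148 were also called for the difference of differences. With opposite signs this exceeds either difference and uses the same libraries, so these calls are no added support. APZ42_015044 turned towards females. It measured 84.1 to 145.0 CPM in young males (median 98.1) and 11.9 to 65.0 in young females (median 15.8). In old animals it measured 232.3 to 548.4 CPM in males (median 422.2) and 829.7 to 3750 in females (median 2045). Neither pair of groups overlapped, and the shift was -4.39 ± 0.49 (edgeR, adjusted p = 1.44e-06). The turn was not particular to the oldest animals: at 30 days females were at 637.4 to 1121 CPM and males at 213.8 to 251.1. At 35 days females were lower, at 71.55 to 100.7 CPM against 232.3 to 245.6 in males. APZ42_001569 had a larger fitted shift, -6.83 ± 0.96, but old females ranged from 1.32 to 166.1 CPM (median 23.8) against 4.28 to 21.4 CPM in old males (median 9.09), and its old-end call was lost under 8 of 23 alternatives. Its turn was also present at 30 days, with females at 251.4 to 305 CPM and males at 10.84 to 16.61. In the other direction APZ42_030635 went from 11.5 to 15.8 CPM in young males and 18.0 to 24.7 in young females to 15.9 to 22.2 in old males and 9.70 to 14.4 in old females (shift 1.55 ± 0.16). Its old-end call was lost under 1 of 23 alternatives, the fit within the lower spike-in cluster (adjusted p = 0.0554). APZ42_017726 shifted by 3.38 ± 0.38, with an old-end difference of 0.79 (adjusted p = 0.0286) that was lost under 10 of 23 alternatives and without 70-day female 2, 80-day female 1 or 80-day female 2 (highest adjusted p = 0.0567). Old males were at 13.9 to 21.4 CPM and old females at 2.19 to 19.8, so the sexes overlapped.

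**Figure D4:**
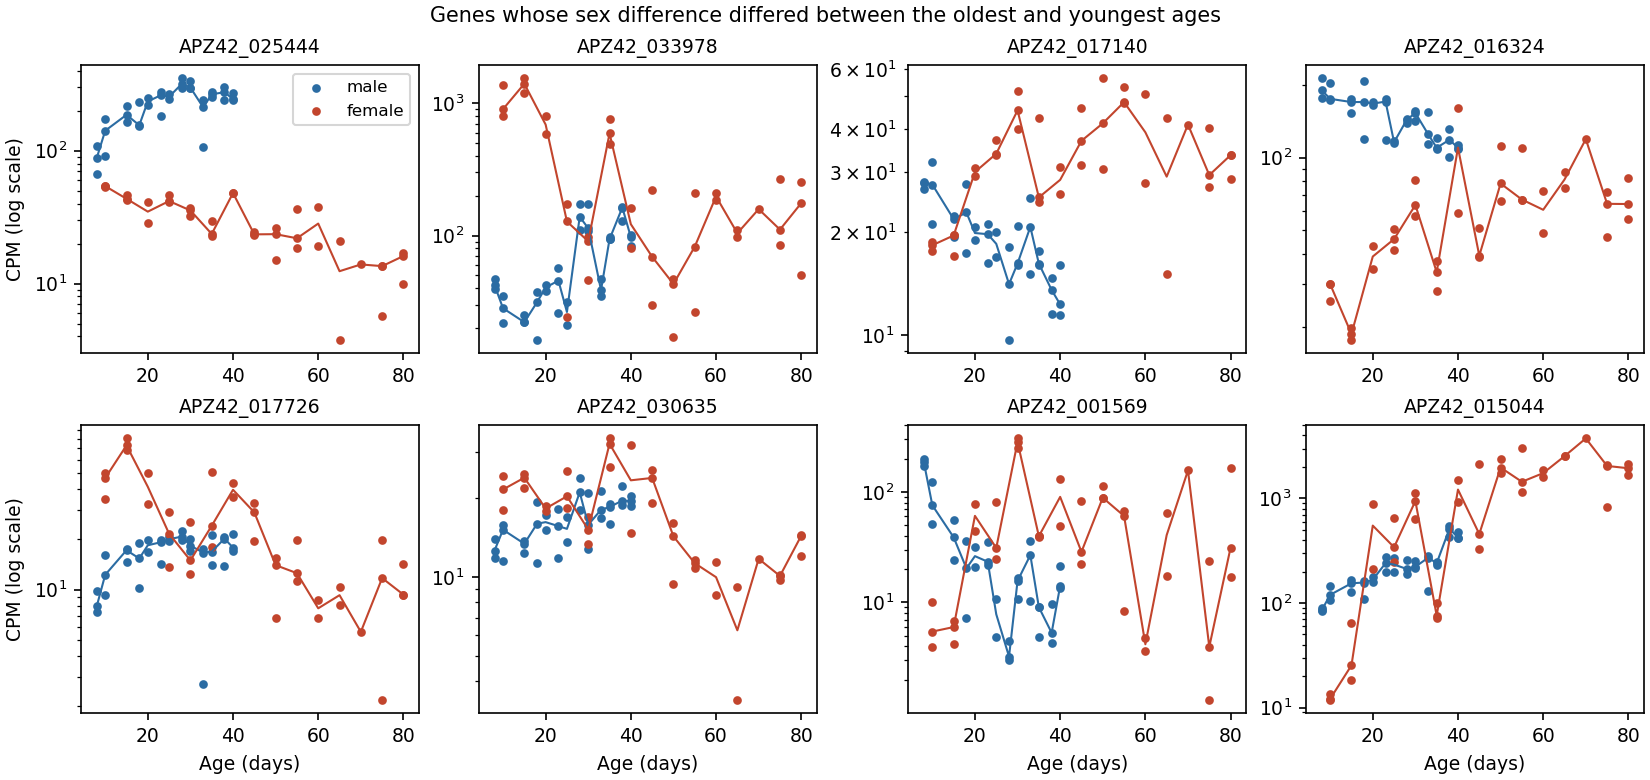
CPM (log scale) of 8 genes against age in days in every library, with males in blue, females in red and lines through the median at each age. The upper row holds the genes with the smallest p for the difference between the old-end and young-end sex differences, and the lower row the genes called in opposite directions at the 2 ends.

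Most genes that were strongly biased in young animals were biased the same way in old ones, and the shares of counts they held in old females lay nearer to those of males than in young females. The lists were chosen on the young libraries, whose own values are given as a description. The 547 genes at least 4-fold higher in young females held 21.7% to 27.9% of the counts of young female libraries (outside 7 very abundant genes that vary together) and 3.78% to 12.7% in old females, with a median of 10.3%. The 3.78% came from 75-day female 2, and without it the lowest was 7.85%, also without 75-day female 3. Females of 35 and 40 days, which did not enter the choice, were at 13.7% to 23.3% and old males at 0.961% to 1.6%. All 7 old females thus lay below all 5 females of 35 and 40 days and above all 9 old males. The course was not even, since 30-day females were at 10.9% to 13.6%. Females of 50 to 65 days were at 6.31% to 11.5% and those of 80 days at 11.05% to 12.7%. A low share was thus not particular to the oldest females. The 827 genes at least 4-fold higher in young males held 0.291% to 0.767% of counts in young females and 1.15% to 5.01% in old females, with 0.261% to 1.98% at 35 and 40 days and 4.23% to 7.58% in old males. The 70-day female was highest at 5.01%, within the range of the males, and the 6 other old females were at most 2.67%. Similar values occurred in younger females, with 1.13% to 3.16% at 30 days and 2.09% to 3.21% at 50 days. At 45 days the share was 0.417% to 0.762%. The 1.15% again came from 75-day female 2, and the lowest was 1.93% without it and 2.29% without 75-day female 3 as well. At the old end 440 of 490 tested genes of the first list were called higher in females and 2 higher in males, with a median log2 difference of -2.05 against -0.02 for all genes. Of 796 tested genes of the second list 511 were called higher in males and 7 higher in females, with a median of 1.43. Over all genes 15.9% were called higher in females and 15.2% higher in males.

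**Figure D5:**
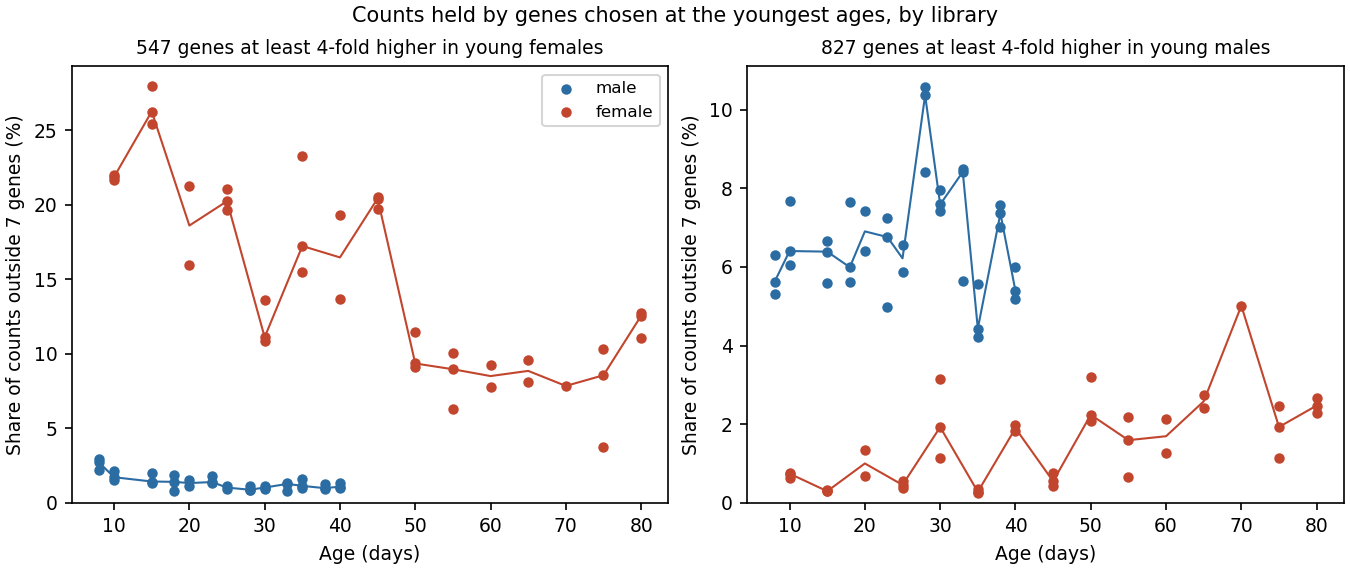
Share of counts, outside 7 abundant genes, held by the 547 genes at least 4-fold higher in young females (left) and the 827 genes at least 4-fold higher in young males (right), for every library against age, with lines through the medians. In females the left share is at least 21.7% at 10 and 15 days and at most 12.7% at 70 to 80 days. Low values also occur at 30 days and from 50 to 65 days.

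Taking the old males against females of 35 and 40 days, 8425 of 16354 genes were called (51.5%), 4326 (26.5%) higher in males and 4099 (25.1%) higher in females. A difference of 4-fold or more was reached by 1224 and 709 of them. With spike-in library sizes 5339 genes were called, 3699 of them higher in males. These males also enter the old-end comparison, so the 2 sets of values are only placed side by side: 416 and 367 genes passed the same size at the old end. The direct test of the difference, females of 70 to 80 days against those of 35 and 40, called 866 of 15501 genes (5.59%), 421 (2.72%) higher and 445 (2.87%) lower at the older ages. This count depended strongly on single libraries, from 114 without 35-day female 2 to 1389 without 75-day female 2. It was 122 without 35-day female 3, 125 without 35-day female 1, 242 without 80-day female 2 and 330 without 80-day female 1. It was 57 within the lower spike-in cluster and 0 with spike-in library sizes, where 1614 genes had an unadjusted p under 0.05, and 2161 with DESeq2.

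These female libraries are independent of the young ones, so genes sorted by their young-end difference could be read in them. Of 4007 genes higher in young females, 368 (9.18%) were called lower and 15 higher at 70 to 80 days than at 35 and 40, with a median log2 change of -0.36. Among 6672 genes with no young-end call 57 (0.854%) were called lower, and over all genes tested 2.87%. Of 4218 genes higher in young males, 165 (3.91%) were called higher and 18 lower, with a median of 0.33. That share lay near the 3.19% called higher among genes with no young-end call and the 2.72% over all genes tested, and is not read as a result about male-biased genes. The median change was 0.085 in genes with no young-end call and 0.03 over all genes. Without 75-day females 2 and 3, 581 genes higher in young females (14.5%) were called lower and 28 higher. Among genes with no young-end call 1.83% were then called lower. Of genes higher in young males 303 (7.25%) were then called higher and 29 lower, against 4.1% called higher among genes with no young-end call. How near the male-biased share lay to that of uncalled genes thus depended on these 2 libraries. Named by the rule were APZ42_033983, which rose from 12.3, 14.8, 19.2, 19.9 and 23.7 CPM in the 5 females to 56.2 to 112.8 CPM in the 7 older ones (2.21 ± 0.26, edgeR, adjusted p = 0.00383), and APZ42_017390, which rose from 11.6, 12.6, 14.1, 14.9 and 18.7 CPM to 27.1 to 40.2 CPM (1.26 ± 0.16, adjusted p = 0.00415). APZ42_011280 fell from 149.8, 176.1, 211.1, 237.3 and 261.5 CPM to 20.1 to 56.2 CPM (-2.62 ± 0.25, edgeR, adjusted p = 0.00149), and APZ42_033874 from 152.9, 180.6, 192.9, 200.2 and 215.4 CPM to 45.6 to 95.6 CPM (-1.49 ± 0.19, adjusted p = 0.00415). In each of these 4 genes the ranges of the older and younger females did not overlap, and all 4 lost their call with spike-in library sizes. These levels were not particular to the oldest females. At 50 days APZ42_033983 was at 62.66 to 89.99 CPM and APZ42_017390 at 36.34 to 45.37 CPM. At 65 days APZ42_011280 was at 13.87 to 18.53 CPM and APZ42_033874 at 52.31 to 75.46 CPM. Young females were at 47.54 to 81.74 CPM for APZ42_011280, which overlaps the oldest. APZ42_033983 also rose in males from young to old (3.06 ± 0.24, edgeR, adjusted p = 7.26e-10).

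Old females varied more among themselves than old males. The median SD of log2 CPM over 15125 genes was 0.591 in the 7 old females and 0.344 in the 9 old males, and 3631 against 1214 genes had an SD over 1. Without 75-day females 2 and 3 the female median was 0.337, and 983 genes had an SD over 1. The wider spread was thus not seen without those 2 libraries. They were picked because they lay apart in these data, so leaving them out was bound to lower the spread. Without 38-day male 1, picked likewise, the male median was 0.332, and 1044 genes had an SD over 1. Young males were at 0.338, young females at 0.279 and females of 35 and 40 days at 0.424.

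Within each sex few genes were called between ages by edgeR. Between 40 and 35 days 23 genes were called in males (0.144% of those tested; 1708 had an unadjusted p under 0.05), 16 (0.1%) higher and 7 (0.0438%) lower at 40 days, against 531 with DESeq2 and 2049 with limma-voom. APZ42_027564 measured 16.4, 17.8 and 21.2 CPM at 35 days, 36.0, 36.4 and 41.3 at 38 days and 69.0, 80.6 and 123.9 at 40 days (2.32 ± 0.24, edgeR, adjusted p = 0.00343). The 3 ages did not overlap, but earlier ages did not continue this order: 30-day males were at 31.4, 46.4 and 106.6 CPM and 33-day males at 22.4, 24.5 and 84.2 CPM, all above the 35-day males. APZ42_031958 fell from 13.6, 16.5 and 17.8 CPM at 35 days to 5.07, 5.33 and 6.39 CPM at 40 days (-1.49 ± 0.18, edgeR, adjusted p = 0.0049), and lost its call without 35-day male 3 (adjusted p = 0.0559) or 40-day male 1 (adjusted p = 0.0526). Both genes lost their call with spike-in library sizes (adjusted p = 0.887). The count of 23 ranged from 1 without 35-day male 3 to 209 without 75-day female 2. It was 3 without 35-day male 1, 4, 6 and 7 without 40-day males 1, 2 and 3, 50 without 75-day female 1 and 135 without 80-day female 3.

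Between 80 and 75 days 3 genes were called in females by edgeR (0.0188% of those tested; 1702 had an unadjusted p under 0.05), all higher at 80 days, and 124 were called by DESeq2. APZ42_014848 measured 4.82, 12.2 and 15.0 CPM in the 75-day females and 169.5, 370.7 and 417.4 CPM in the 80-day females (4.85 ± 0.46, edgeR, adjusted p = 0.000686), with 752.8 CPM in the 70-day female. The 75-day females thus stood below both neighbouring ages for this gene, while the old males ranged from 155.1 to 290.9 CPM. The count was 382 without 75-day female 1 and 12 without 75-day female 2.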

How the data were processed

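RNA from whole Daphnia magna, in samples of similar dry mass, was made into libraries with the Illumina TruSeq mRNA kit and sequenced as paired reads of 100 bases, per the labels' protocols. The submitters' processing notes list TopHat2 2.1.1 and DESeq2 1.20. Not given in the sources used here are the genome build, annotation, counting tool and strand setting, which leaves counts of near-identical, overlapping or antisense genes uncertain. The authors deposited raw counts, whole numbers without normalisation, for 26646 gene IDs and 7 spike-in (SIRV) rows in 80 columns. The spike-in rows, 0.217% to 2.31% of the counts in the libraries compared here, were left out of library sizes and tests. Of the columns, 3 are marked in the labels as mislabelled and were not used, and 2 technical runs of a 10-day male were summed. The authors' 3 deposited tables of model results were not used.

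Groups came from the titles. The main test was that of edgeR 4.0.16 under R 4.3.3 (TMM, filterByExpr by sex and end of life, quasi-likelihood F-test, Benjamini-Hochberg adjustment over all genes tested, adjusted p under 0.05). Each SE was obtained as the log2 change over the root of F. CPM used TMM sizes from all 76 libraries, with a prior count of 2 for log2 values. Fits took the libraries of each comparison alone, or 4 groups for the difference of differences and 6 sex-and-age groups for ages within a sex. Named genes at the old end were the 2 with the largest change in each direction among called genes with no overlap and a median of at least 10 CPM. In the other comparisons the rule took the smallest p among called genes whose mean log2 CPM was 3 or more. Reversed genes came from those called in opposite directions at the 2 ends and for the difference, with the same abundance limit. Taken were the 2 in each direction whose smaller absolute log2 change of the 2 ends was largest. The members, lists and tests were chosen with earlier results of these data known. Alternatives tried were DESeq2 1.42.0, limma-voom (limma 3.58.1), relative log expression scaling, spike-in library sizes, no filter, covariates, blocks, other sets of libraries and leaving out each library. Added after seeing the data were the fits without 75-day females 2 and 3 or 38-day male 1, and most within the lower spike-in cluster (log2 ratio of SIRV7 to SIRV1 under -0.101). Scripts were tested on simulated counts. Figures were drawn with matplotlib.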

Additional observations from a re-analysis of the deposited data

Results flagged for a closer look

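Among 65 groups of 4 to 10 libraries tested for a value far from the others, 7 were flagged, where chance flags about 1 in 20. For APZ42_008269, near-limited to females, 35-day male 3 had 0.0503 CPM while the other old males had 0, which is a single count, and 75-day female 2 had 2.19 CPM against 14.7 CPM in the next female. Gene counts set apart 40-day male 1 (10767026, next 18007182) and 75-day female 2 (2242215, next 8901627). On the second principal component 38-day male 1 stood at -52.8 (next male -9.2), and on the third at -22.7 (next -2). On the third component 75-day female 2 stood at 96.5 (next female -2.7).

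The sex difference itself differed between the oldest and the youngest animals for 2725 genes (edgeR test of the difference of differences). The log2 shift was 3.28 for APZ42_025444, 4.74 for APZ42_033978, 3.38 for APZ42_017726 and 1.55 for APZ42_030635, all towards males. It was -1.66 for APZ42_017140, -2.23 for APZ42_016324, -6.83 for APZ42_001569 and -4.39 for APZ42_015044, all towards females.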

How the results depend on the processing

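No named gene changed direction under any alternative or left-out library. The count of genes called at the old end was between 4393 and 6141 when each library was left out, 4986 with relative log expression scaling, 5973 with DESeq2 and 6690 with limma-voom, and it moved to 2379 with spike-in library sizes, 2655 with a 2-fold minimum, 1372 within the lower spike-in cluster and 2431 in that cluster without 75-day females 2 and 3; the last 2 fits hold fewer libraries. With limma-voom the difference of differences had 4185 calls and males old against young 7313. With 10-day libraries alone as the young end the difference of differences had 834 calls, males 1507 and females 4650, from fewer libraries. Spike-in sizes gave 1088 calls for males old against young, 5339 for equal days, 0 for females of 70 to 80 against 35 and 40 days and 0 for males of 40 against 35 days (580 at an unadjusted p under 0.05). Within the lower cluster the difference of differences had 1131 calls, males old against young 1587, equal days 3948 and the older against the younger females 57. The older against the younger females had 2161 calls with DESeq2, 2263 with limma-voom, 1389 without the shallowest library and 1383 without 75-day females 2 and 3. Males of 40 against 35 days had 39 calls without a filter, 531 with DESeq2 and 2049 with limma-voom, and females of 80 against 75 days 124 and 8 with these tools. Where no smaller set of libraries is named, the cause was not tested. Left-out libraries gave 7885 to 8641 calls at the young end, 2176 to 3483 for the difference of differences, 3646 to 5678 in males and 6610 to 7788 in females old against young, 7456 to 8570 at equal days, 114 to 1389 for the older against the younger females, 1 to 209 for males of 40 against 35 days and 3 to 382 for females of 80 against 75 days. Deviations of same-numbered libraries from their group means had 30 correlations from -0.444 to 0.276, 5 of them over 0.1 (median -0.0045). With 3 libraries per group and no differently numbered pairs as a reference, these cannot decide whether numbers pair libraries. With the replicate block the old end had 4489 calls, the older against the younger females 462 and males of 40 against 35 days 10. The 75-day female 2 limits depth, since 1 count in it equals 0.446 CPM.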
